A study of Mus musculus with 14 samples.

Results

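The 10 genes described here encode enzymes and transporters that build the sulfated sugar chains of proteoglycans. They are Xylt1, Csgalnact1, Chsy1, Chpf, Chst11, Chst3, Slc26a2, Papss2, Ext1 and Ext2, 10 of 21883 protein-coding genes on assembled mouse chromosomes. Peaks were assigned to a gene when they overlapped its span extended by 5 kb on each side, which gave 157 of the 170889 peaks in 12 lists. The lists came from ATDC5, a mouse chondrogenic line derived from the teratocarcinoma AT805, in which chromatin was immunoprecipitated for H3K4me3 or RUNX2 on days 0, 3 and 10 of culture. Day 0 cells were undifferentiated, and day 3 and day 10 cells had been plated as dense droplets and kept with bGP (β-glycerophosphate) and an ascorbate phosphate. Each antibody was used in 2 libraries a day, numbered replicates 1 and 2 by the submitters. No label says that the replicates of a day were separate cultures. Their spread may therefore be technical. All groups are the same unmodified line, and 1 line is the only model of a chondrocyte used. The 2 input libraries were not analysed here.

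Chondroitin sulfate and heparan sulfate are long chains of alternating sugars fixed to core proteins through a short linker. Xylosyltransferases start the linker, and the first sugar added after it decides between the chain types. Chondroitin sulfate is the main chain of aggrecan, whose dense negative charge holds water in cartilage, while heparan sulfate chains bind growth factors such as hedgehog and fibroblast growth factor proteins around chondrocytes. Both need sulfate that is imported into the cell and activated before transfer. H3K4me3, trimethylation of lysine 4 of histone H3, marks the starts of active and poised genes. RUNX2 is a runt-domain transcription factor needed for maturation of chondrocytes and for bone formation. A peak is a stretch where a library held more reads than its local background, and it says nothing directly about transcript levels.

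RefSeq promoter sequences of build GRCm38.p6 were found for 6 of the 10 genes. Each runs from 250 bases before the annotated start to 50 bases from it on, so that base 251 is the start. They are shown because RUNX2 peaks of both day 3 replicates overlapped all of them. Capitals mark the letters TGTGGT, a form of the runt-domain motif. Each is written 5′ to 3′ on the gene's own strand.
Chsy1 (chr7:66109242-66109541, plus strand): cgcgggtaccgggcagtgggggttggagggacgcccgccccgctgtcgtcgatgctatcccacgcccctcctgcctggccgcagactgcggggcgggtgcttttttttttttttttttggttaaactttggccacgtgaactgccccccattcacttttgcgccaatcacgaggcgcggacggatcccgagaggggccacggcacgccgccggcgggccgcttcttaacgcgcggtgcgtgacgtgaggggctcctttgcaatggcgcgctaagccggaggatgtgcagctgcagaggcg
Chpf (chr1:75479422-75479721, minus strand): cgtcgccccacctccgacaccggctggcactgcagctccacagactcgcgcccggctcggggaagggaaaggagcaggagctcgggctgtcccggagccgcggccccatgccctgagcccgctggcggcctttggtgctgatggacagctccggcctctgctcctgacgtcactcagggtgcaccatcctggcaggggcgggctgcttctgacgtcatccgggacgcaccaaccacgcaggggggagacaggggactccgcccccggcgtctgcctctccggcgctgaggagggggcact
Chst11 (chr10:82985247-82985546, plus strand): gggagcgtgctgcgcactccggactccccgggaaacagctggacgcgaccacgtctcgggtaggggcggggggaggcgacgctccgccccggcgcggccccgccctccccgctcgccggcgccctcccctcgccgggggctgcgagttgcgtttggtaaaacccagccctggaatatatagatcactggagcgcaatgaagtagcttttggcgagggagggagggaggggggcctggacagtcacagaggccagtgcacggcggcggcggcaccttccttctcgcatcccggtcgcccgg
Chst3 (chr10:60219211-60219510, minus strand): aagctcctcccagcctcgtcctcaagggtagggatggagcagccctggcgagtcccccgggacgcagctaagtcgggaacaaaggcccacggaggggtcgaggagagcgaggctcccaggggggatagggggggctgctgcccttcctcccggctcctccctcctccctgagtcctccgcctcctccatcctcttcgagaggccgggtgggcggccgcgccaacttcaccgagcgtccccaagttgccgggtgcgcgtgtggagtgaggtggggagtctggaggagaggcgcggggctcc
Papss2 (chr19:32595465-32595764, plus strand): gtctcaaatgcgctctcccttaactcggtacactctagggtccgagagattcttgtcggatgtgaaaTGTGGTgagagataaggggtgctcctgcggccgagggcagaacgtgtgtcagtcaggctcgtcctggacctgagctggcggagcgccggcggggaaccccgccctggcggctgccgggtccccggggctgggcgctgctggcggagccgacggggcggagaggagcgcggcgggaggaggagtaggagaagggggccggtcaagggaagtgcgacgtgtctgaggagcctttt
Ext2 (chr2:93822519-93822818, minus strand): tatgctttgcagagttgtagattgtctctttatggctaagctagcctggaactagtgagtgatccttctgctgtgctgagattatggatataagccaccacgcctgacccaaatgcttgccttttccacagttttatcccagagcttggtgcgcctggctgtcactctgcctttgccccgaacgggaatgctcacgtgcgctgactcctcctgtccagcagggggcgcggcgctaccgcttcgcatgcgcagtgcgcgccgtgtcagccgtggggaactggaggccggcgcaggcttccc

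The letters TGTGGT and TGCGGT were searched on both strands, and the 6 windows held 1 match. It lay in Papss2 at bases 68 to 73, which are positions -183 to -178 from the start. The share of all 32851 RefSeq promoters of the same length with TGTGGT was 16.8%, that with TGCGGT 6.45% and that with either 22.4%. A match describes letters and not a bound site. The windows were rich in G and C, from 58.0% in Ext2 to 71.7% in Chpf, against a median of 52.7% over all promoters. They held between 18 (Ext2) and 34 (Chsy1 and Chst11) CG dinucleotides, against a median of 7. Papss2 has another annotated start inside the gene, at 32620005 on chromosome 19, whose window held 44.3% G and C and 1 CG. No list had a peak over that window, so all Papss2 start-site peaks lay at the start printed above. The Chpf window extends towards Tmem198, whose span begins 61 bp from that of Chpf, and a peak there cannot be assigned to one of the 2 genes.

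H3K4me3 was present at each of the 10 genes on every day. All 10 had a peak in each of the 6 lists, which 54.5% of all protein-coding genes did. By day, 10 of 10 were marked in both replicates of day 0, where 54.8% of all genes were, of day 3 (64.3%) and of day 10 (59.4%). With the window narrowed to 1 kb around the 5′ end of the span, or around either end where no strand was known, 9 of 10 were marked on each day, against 46.7%, 54.2% and 50.8% of all genes. Chst3 was the exception, because its peak lay at its annotated start inside the span. The genes are long, with a median span of 99.2 kb against 17.2 kb over all genes, which gives peaks more room to overlap them. Chpf, at 4.9 kb, and Slc26a2, at 14.7 kb, are the short ones, and Csgalnact1, at 379 kb, is the longest.

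RUNX2 peaks were found at the 10 genes on day 3 alone. All 10 had one in both day 3 replicates, against 61.1% of all genes and 94.4% of the genes that carried H3K4me3 in both day 3 replicates. Thus 10 of 10 was close to the share among marked genes in general. On days 0 and 10, 0 of 10 had one in both replicates, and the shares over all genes were 0.0274% and 0.0183%. The 4 lists of those days held 0 peaks at the 10 genes. The RUNX2 lists of those days held 97 to 108 peaks in all, against 19319 and 16859 on day 3. Of their summits, 1.85% to 2.06% lay within 1 kb of a gene end, against 59.7% and 64.1% on day 3. The absence on days 0 and 10 was thus shared by nearly all genes. The number of reads behind each list is unknown, so a binding below the limit of detection cannot be told apart from none. Within 1 kb of the 5′ end, 9 of the 10 genes had RUNX2 in both day 3 replicates (52.0% of all genes and 95.4% of those marked there). Around the annotated starts, where known, 6 of 6 did, against 55.6% of genes with such a start.

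The strongest H3K4me3 peaks of the 10 genes had a wide range of ranks. On day 3 their fold enrichments ran from 16.2 (Slc26a2) to 31.2 (Csgalnact1) in replicate 1 and from 7.21 (Chpf) to 11.4 (Csgalnact1 and Papss2) in replicate 2. By −log10 q, their ranks ran from the top 6.91% to 40.3% in replicate 1 of day 3 and 12.1% to 49.1% in replicate 2. On day 0 they ran from 9.66% to 82.2% in replicate 1 and 11.3% to 58.0% in replicate 2. The day 10 ranks ran from 6.25% to 55.4% and from 11.2% to 47.5%. Each value is that of a gene's strongest peak, and the lists differ in length, so these ranks describe each list and no change. The lowest rank was that of Xylt1 in replicate 1 of day 0, in the top 82.2%, followed by Slc26a2 at 75.0% in the same list.

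The libraries differed in ways that touch these values. H3K4me3 lists ranged from 13765 to 29022 peaks, with 28653 and 26781 on day 3. Chondrocyte markers with H3K4me3 at a gene end in both replicates numbered 4 of 11 on day 0 and 10 of 11 on days 3 and 10. Over all genes the shares were 47.4% on day 0, 55.2% on day 3 and 51.7% on day 10. Markers of skeletal muscle were at 0 of 5 on each day. On days 0, 3 and 10, neuron markers were at 0, 2 and 1 of 5, blood cell markers at 0, 1 and 1, epithelial markers at 0, 1 and 1 and pluripotency markers at 0, 1 and 0. An end of another gene lies near that of the marked genes Acan, Comp, Col11a2, Matn3, Syn1 and Elavl3. Peaks there cannot be assigned to a single gene, so these counts are a limited guide to cell type. The part of list length and cell makeup in the day differences below was not tested.

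H3K4me3 peaks formed 35 separate regions in the windows of the 10 genes when the 6 lists were merged. Each gene had exactly 1 region found in all 6 lists, and these 10 lay at an annotated start or at an end of the span. Of all regions in gene windows, 41.8% were found in all 6 lists. A region found in all 6 lists cannot be gained or lost by definition, so only the length covered by peaks within the 10 regions was compared. Compared with day 0, both day 3 replicates covered more than both day 0 replicates at 8 of the 10 genes, all but Chsy1 and Ext1, and 78.3% of the 10698 such regions did so. None of the 10 was shorter in both (0.0654% of regions). The median log2 ratio of mean covered length was 0.74 for the 10 genes and 0.49 for all these regions. From day 3 to day 10, coverage was longer in both replicates at 0 of 10 genes (0.224% of regions) and shorter at 2, Csgalnact1 and Slc26a2 (21.4%). The median log2 ratio was -0.11 for the 10 genes and -0.23 for all regions. Day 10 exceeded day 0 in both replicates at 6 genes, namely Xylt1, Csgalnact1, Chst11, Chst3, Slc26a2 and Papss2, and 22.8% of regions did so. The other 4 genes had overlapping values, and none was shorter on day 10 (0.477%). A two-sided exact permutation of 2 against 2 libraries gives no p below 0.333, so no single gene could pass that test at 0.05, and no other test was made per gene.

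**Figure D1:**
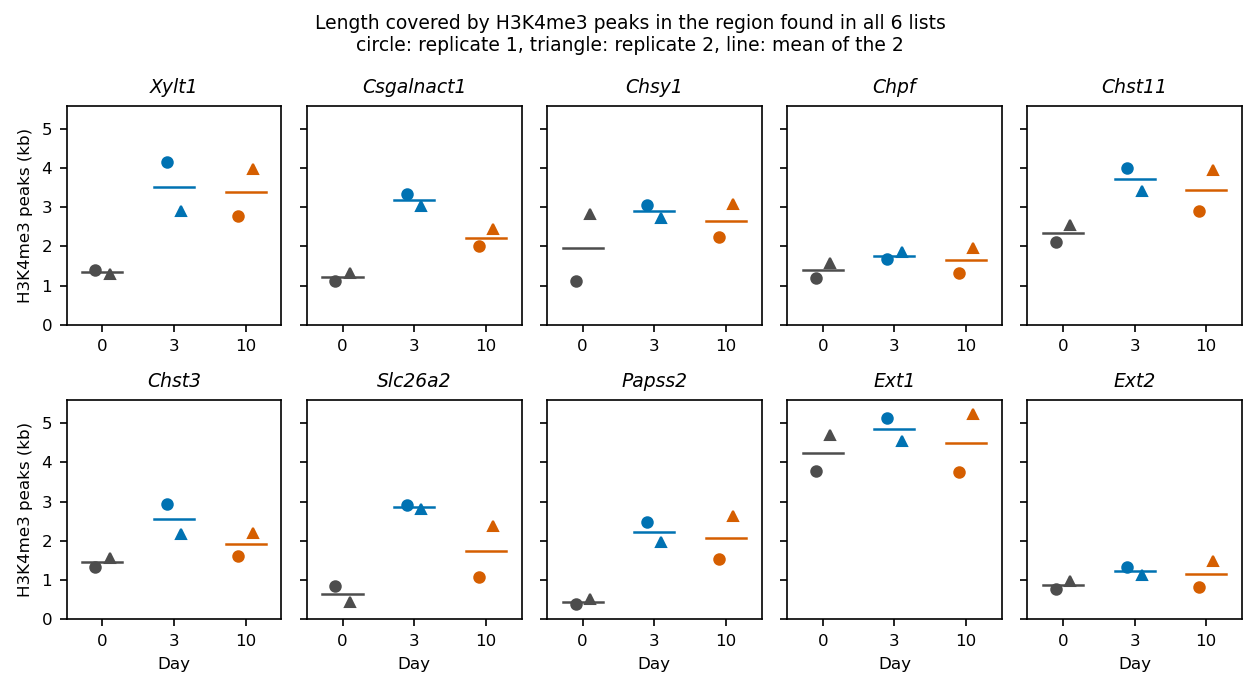
Length covered by H3K4me3 peaks, in kb, within the region that each gene had in all 6 lists, by day. Circles are replicate 1, triangles replicate 2 and lines the mean of the 2; the day 3 points of Papss2 and Slc26a2 lie far above their day 0 points, while those of Chsy1 and Ext1 overlap with day 0.

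Papss2, which makes the activated sulfate donor used by all the sulfotransferases, showed the highest ratio among the 10. Its start-site region on chromosome 19 (32595182 to 32597806) was covered over 382 and 511 bp on day 0, 2491 and 1958 bp on day 3 and 1535 and 2622 bp on day 10. Every later library covered at least 1535 bp, with no overlap with day 0. The means were 446.5 ± 91.2 bp (SD, n = 2) on day 0, 2224 ± 377 bp on day 3 and 2078 ± 769 bp on day 10. The log2 ratio of day 3 to day 0 was 2.32, and 0.15% of all regions had one at least as high. That of day 10 to day 0 was 2.22, reached by 0.122% of regions. These shares, and those of the other genes below, are over regions of any day 0 length. The day 0 peaks of Papss2 were short, as the median peak of the 2 day 0 lists was 945 and 852 bp, and a short start favours a high ratio. The authors' fold enrichments of its strongest peak, which cannot be compared between lists, were 4.70 and 5.96 on day 0, 20.5 and 11.4 on day 3, then 10.3 and 11.8 on day 10. Within its own list the peak ranked in the top 67.3% and 58.0% by −log10 q on day 0, and in the top 27.8% and 13.6% on day 3. The lists differ in length, so these ranks describe each list and no change. RUNX2 of day 3 had folds of 6.78 and 6.45 there.

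Slc26a2, the sulfate transporter of the cell membrane whose loss causes chondrodysplasias with undersulfated cartilage, came next. Its region on chromosome 18 (61209279 to 61212501) lay at one end of the span. Peaks covered 840 and 436 bp of it on day 0, 2919 and 2822 bp on day 3 and 1071 and 2386 bp on day 10. Both day 0 lengths were below the median peak of their lists, 945 and 852 bp. The day 3 replicates lay close together and above the other 4 libraries, and the day 10 replicates lay apart between the other days. The means were 638 ± 286 bp, 2870 ± 68.6 bp and 1728 ± 930 bp (SD, n = 2). The log2 ratio was 2.17 from day 0 to day 3, reached by 0.168% of regions, and 1.44 from day 0 to day 10 (0.776%). From day 3 to day 10 it was -0.73, and 98.7% of regions had a ratio at least that high. With 1 library left out at a time, the ratio of day 10 ran from 0.747 to 1.99 against day 0 and from -1.42 to -0.267 against day 3, so the level of day 10 was poorly fixed. RUNX2 folds at the region were 6.64 and 9.84. Papss2 and Slc26a2 thus had the highest log2 ratios of the 10 genes from day 0 to day 3. They also had the lowest mean coverage on day 0, 446.5 and 638 bp, and a short start favours a high ratio.

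Xylt1 encodes a xylosyltransferase that places the first linker sugar on the core protein. Its region at the first base of the span on chromosome 7 (117380052 to 117384489) was covered over 1409 and 1292 bp on day 0, 4152 and 2901 bp on day 3 and 2773 and 3983 bp on day 10. All 4 later libraries were above both day 0 libraries. The log2 ratio was 1.38 on day 3 (2.36% of regions) and 1.32 on day 10 (1.22%), both against day 0. The log2 ratio of day 10 to day 3 was -0.06, so the 2 later days had nearly the same mean. RUNX2 folds at the region were 4.97 and 16.2.

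Csgalnact1 adds the first N-acetylgalactosamine after the linker, the step that commits a chain to chondroitin. Its region on chromosome 8 (68732626 to 68736120) was covered over 1123 and 1316 bp on day 0, 3334 and 3036 bp on day 3 and 2000 and 2434 bp on day 10. The 3 days did not overlap each other, with day 3 highest and day 10 between. The log2 ratio was 1.39 from day 0 to day 3 (2.35% of regions), -0.52 from day 3 to day 10 and 0.86 from day 0 to day 10 (5.85%). Its strongest peak ranked in the top 6.91% of the list of day 3 replicate 1 and the top 12.1% of replicate 2. RUNX2 folds were 7.56 and 10.2.

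Chsy1 and Chpf encode the polymerase and its partner that extend the chondroitin chain. At Chsy1 the peaks covered 1119 and 2817 bp on day 0, 3067 and 2728 bp on day 3 and 2230 and 3072 bp on day 10. The day 0 replicates stood apart, and replicate 2 of day 0 lay among the values of the later days. At Chpf they covered 1190 and 1584 bp on day 0, 1669 and 1854 bp on day 3 and 1332 and 1962 bp on day 10. Day 3 was above day 0 at Chpf by a log2 ratio of 0.35, a value reached by 71.8% of regions, so Chpf was extended less than most. RUNX2 folds were 5.06 and 12.4 at Chsy1 and 7.80 and 11.6 at Chpf.

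Chst11 and Chst3 place sulfate on the 4 and 6 positions of the galactosamine of chondroitin, respectively. Peaks at the start of Chst11 covered 2112 and 2552 bp on day 0, 4007 and 3414 bp on day 3 and 2902 and 3962 bp on day 10. Those at the start of Chst3 covered 1328 and 1572 bp on day 0, 2931 and 2172 bp on day 3 and 1617 and 2205 bp on day 10. In both genes the later libraries lay above the day 0 libraries. The log2 ratio from day 0 to day 3 was 0.67 for Chst11 (29.1% of regions) and 0.82 for Chst3 (18.3%). These ratios were within the common range of H3K4me3 regions. RUNX2 folds were 5.41 and 13.0 at Chst11 and 8.21 and 11.9 at Chst3.

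Ext1 and Ext2 together form the polymerase of heparan sulfate. The Ext1 region was the widest of the 10 on day 0, with 3778 and 4695 bp covered, followed by 5141 and 4558 bp on day 3 and 3748 and 5244 bp on day 10. The days overlapped, and the log2 ratio from day 0 to day 3 was 0.20, which 89.9% of regions reached. Ext2 had the narrowest region from day 3 on, with 765 and 966 bp on day 0, 1340 and 1124 bp on day 3 and 816 and 1489 bp on day 10. Its log2 ratio to day 3 was 0.51, near the median of all regions. RUNX2 folds at Ext2 were 11.4 and 15.8.

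**Figure D2:**
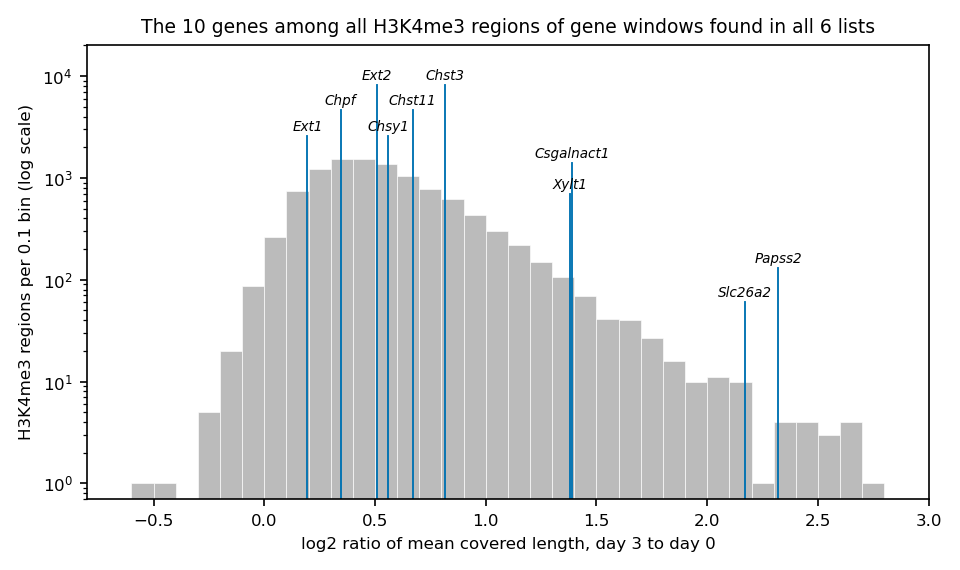
Numbers of H3K4me3 regions (log scale) by the log2 ratio of mean covered length on day 3 to day 0, for the 10698 regions of gene windows found in all 6 lists. Blue lines mark the 10 genes: Papss2 and Slc26a2 lie in the far right tail at 2.32 and 2.17, and Ext1 lies left of the bulk at 0.195.

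Away from these main regions, 25 further H3K4me3 regions lay in the windows. Of the 35 regions 19 were found in 1 list only (36.3% of all regions), and 17 of these 19 came from replicate 1 of day 3, the source of 47.4% of all such regions. The other 2 came from replicate 2 of day 3 and replicate 2 of day 10, which gave 17.9% and 25.2%. None came from replicates 1 and 2 of day 0 (0.571% and 8.44%) or replicate 1 of day 10 (0.528%). Between days 0 and 3, 3 of 35 regions were gained, meaning that neither day 0 replicate and both day 3 replicates had a peak (7.10% of all regions). From day 0 to day 10, 1 was gained (1.87%), and from day 3 to day 10, 0 were (0.102%). None was lost between days 0 and 3 (0.0117%), 3 and 10 (1.52%) or 0 and 10 (0.0195%). The 3 gains became 0 when the lists were trimmed to equal numbers of top peaks, and 22 without replicate 2 of day 3. The gene table gives spans only, so exons and introns were not resolved.

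Xylt1 held 2 of the 3 gained regions. One, on chromosome 7 from 117470004 to 117471712, began 89.0 kb into the gene and had fold enrichments of 9.03 and 4.22 on day 3 and 6.70 in replicate 2 of day 10. The day 3 summits of its 2 replicates lay 12 bp apart, and RUNX2 peaks of both replicates lay in it, with fold enrichments of 4.07 and 3.45. The other, from 117485588 to 117489049, began 104.6 kb into the gene and was kept in both day 10 replicates, with strongest folds of 10.9 and 4.43 on day 3 and 5.07 and 8.61 on day 10. It was the 1 region gained from day 0 to day 10, and it had a RUNX2 peak in replicate 1 only (3.24).

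Chst3 held the third. Its position was 60191858 to 60192379 of chromosome 10, and its folds were 12.2 and 6.92 on day 3 and 5.19 in replicate 2 of day 10, and a RUNX2 peak in replicate 1 only (4.62). Another Chst3 region, from 60209555 to 60210701, was already present in both day 0 replicates (3.53 and 4.33) and on day 3 (15.6 and 6.67), and on day 10 in replicate 2 only (6.69), and RUNX2 peaks of both replicates lay in it (4.66 and 2.72). In Ext1, a region on chromosome 15 from 53113365 to 53114589 was found in replicate 2 of day 0 (5.44), both replicates of day 3 (11.7 and 5.62) and replicate 2 of day 10 (5.96), with RUNX2 at 4.45 and 2.79. It lay far from the main Ext1 region, 45.1 kb into the span in genome direction. Chsy1 and Ext2 had no region beyond the main one.

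**Figure D3:**
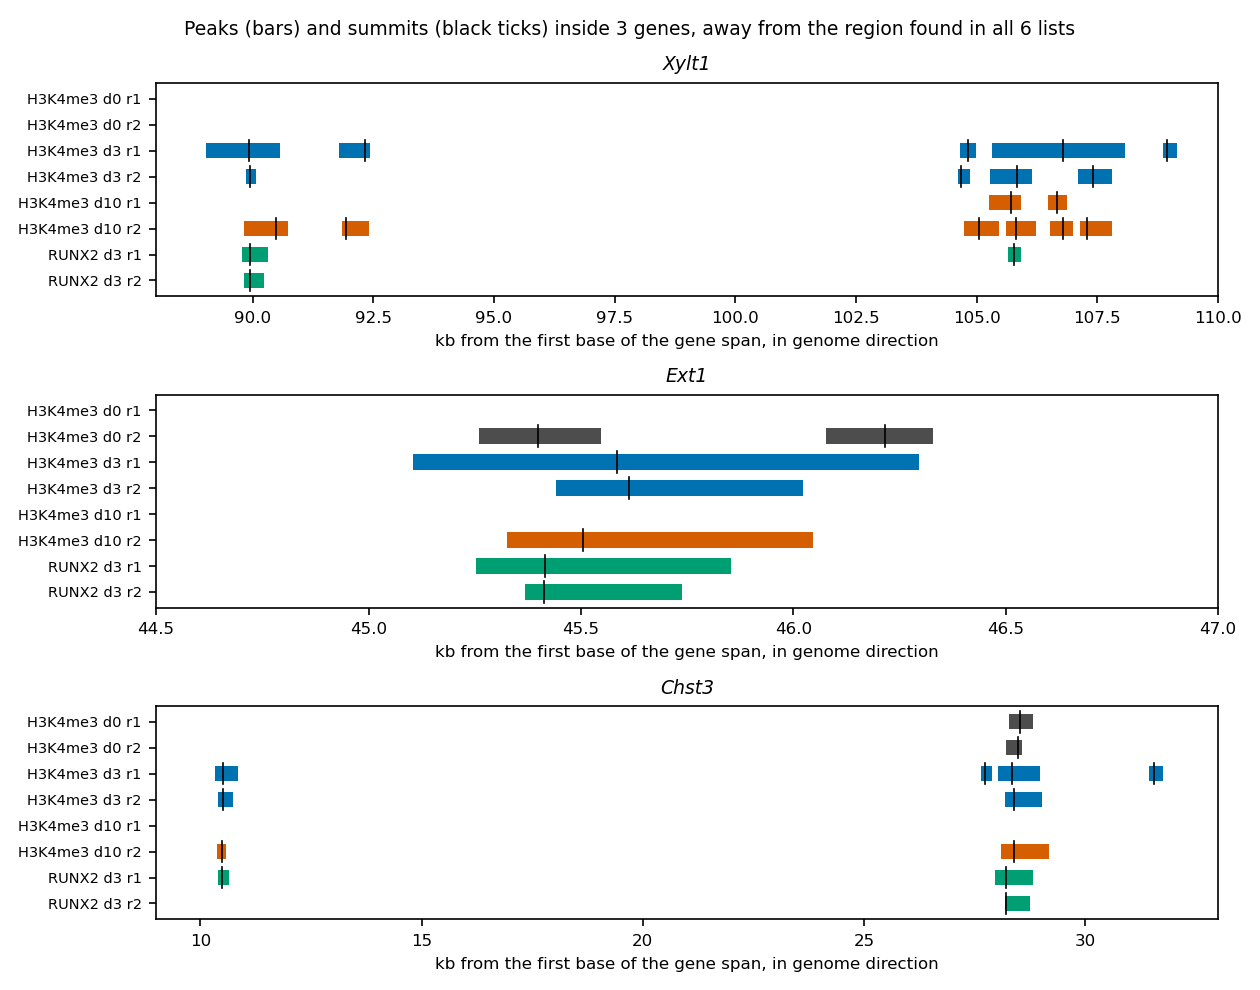
Peaks in each of the 6 H3K4me3 and 2 day 3 RUNX2 lists inside Xylt1, Ext1 and Chst3, by distance in kb from the first base of the span (d, day; r, replicate). Bars are peaks and black ticks summits; the Xylt1 regions near 90 and 105 kb have no day 0 peak, and where both RUNX2 lists have a peak (Xylt1 near 90 kb, Ext1 near 45 kb, Chst3 near 28 kb) their ticks coincide.

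The number of H3K4me3 peaks in the 10 windows was 13 and 14 on day 0, 36 and 22 on day 3, then 16 and 22 on day 10. Both day 3 values were above both day 0 values, and replicate 1 of day 3 stood above all others. The log2 ratio of the means was 1.10 from day 0 to day 3 (two-sided exact permutation p = 0.333), -0.61 from day 3 to day 10 (p = 0.667) and 0.49 from day 0 to day 10 (p = 0.333). This permutation test gives no p below 0.333, so none of the 3 could pass it. With 1 library left out at a time the ratios ran from 0.705 to 1.42, from -0.922 to -0.212 and from 0.245 to 0.705. The whole lists had log2 ratios of 0.68, -0.33 and 0.35, and per 10000 peaks of a list the ratios at the 10 genes were 0.363, -0.2 and 0.164. Wide marked stretches are divided by the peak caller, so a number of peaks is not a number of marked places.

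RUNX2 peaks of both day 3 replicates formed 14 regions at the 10 genes. All 14 overlapped an H3K4me3 region of both day 3 replicates, and 98.6% of the 14072 RUNX2 regions in gene windows did. The 14 regions come from 10 chosen genes and some share a gene, so they are not independent draws. Every one of the 10 main H3K4me3 regions held RUNX2 of both replicates, against 99.8% of such regions in general. Of the other 25 H3K4me3 regions, 3 did (15.6%), those of Xylt1, Chst3 and Ext1 described above. RUNX2 peaks were thus placed at the shared H3K4me3 regions of these genes about as often as in gene windows in general.

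The position of RUNX2 within these regions was close to identical in the 2 libraries. Summits of the 2 replicates lay 0 to 5 bp apart in all 14 regions, and 93.2% of RUNX2 regions in gene windows had summits at most 10 bp apart. H3K4me3 summits were at most 10 bp apart in 1 of the 17 regions held by both day 3 replicates, the gained Chst3 region, against 7.58% over gene windows. Their distance had a median of 92 bp and reached 955 bp in Xylt1. At the 6 annotated starts, RUNX2 summits of replicates 1 and 2 lay downstream by 528 and 523 bp in Chpf, 308 and 306 bp in Chst11, 618 and 618 bp in Chsy1, 294 and 293 bp in Ext2 and 226 and 227 bp in Papss2. They lay inside the gene, beyond the printed windows. Chst3 differed, with both summits upstream at -44 bp, which is base 207 of its printed window. A downstream summit was found at 5 of 6 starts in each replicate, against 83.4% and 83.6% of all genes with a RUNX2 peak at the start. H3K4me3 summits were downstream at 4 and 5 of the 6 (63.3% and 64.0%). The TGTGGT match of Papss2 lay upstream of its start and its RUNX2 summit downstream.

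**Figure D4:**
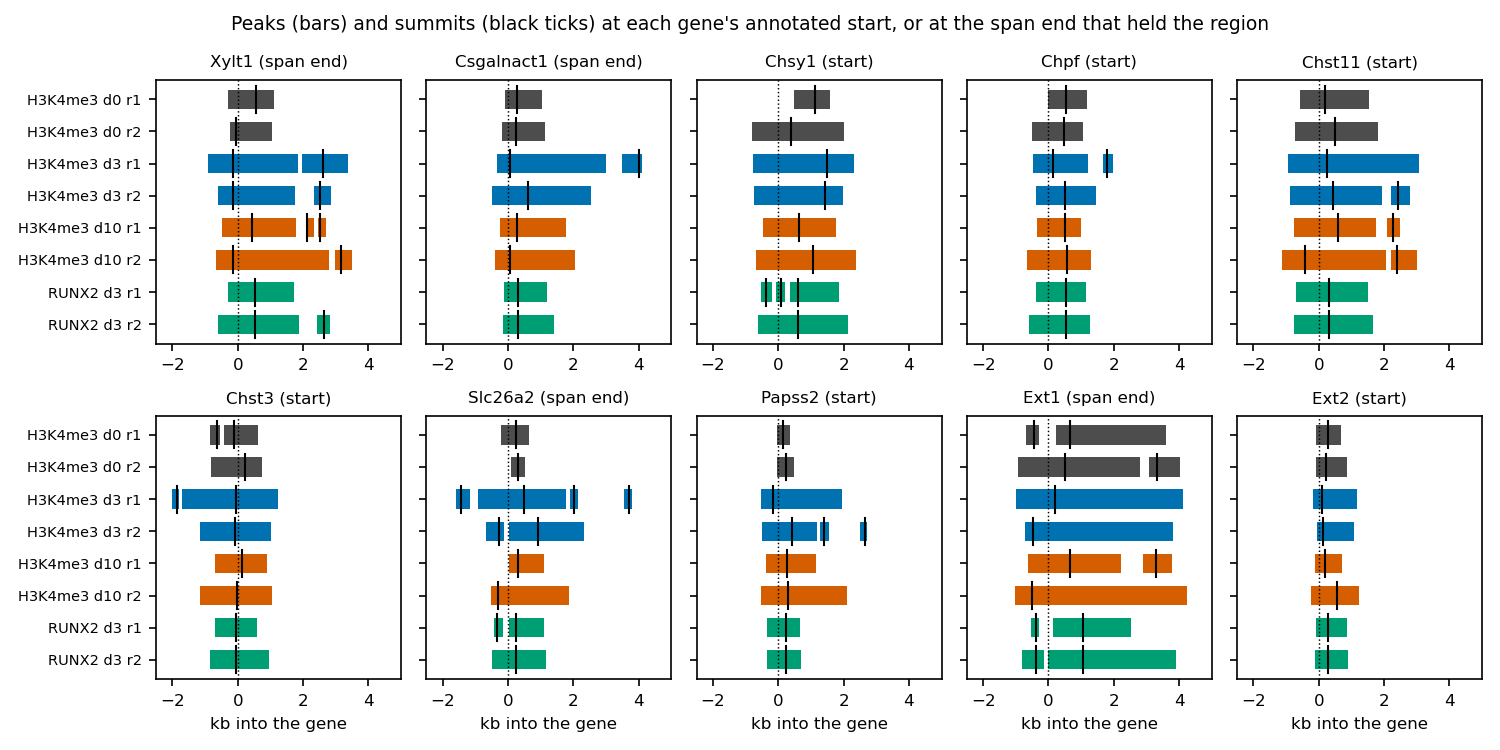
H3K4me3 and day 3 RUNX2 peaks (bars) and summits (black ticks) by distance into the gene, in kb, from the annotated start or, for Xylt1, Csgalnact1, Slc26a2 and Ext1, from the span end nearest the region (d, day; r, replicate). The day 0 bars of Papss2 and Slc26a2 are short, and each gene has a pair of RUNX2 ticks that line up, beside ticks of 1 replicate only at Xylt1, Chsy1 and Slc26a2.

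RUNX2 fold enrichments ordered the 14 regions differently in the 2 replicates. In replicate 2, the 11 regions at main H3K4me3 regions had folds from 6.45 (Papss2) to 16.2 (Xylt1), all above the 3 inside Xylt1, Chst3 and Ext1 (2.72 to 3.45). In replicate 1 the 2 kinds overlapped, since the 3 inner regions had 4.07 to 4.66 and Ext1 had 3.50 and 2.54 at its main region, where RUNX2 formed 2 regions. Set side by side, the fold was higher in replicate 2 at 10 of the 11 regions (91.6% of such regions in gene windows) and at 0 of the 3 inner ones (43.6%). Papss2 was the exception among the 11, with 6.78 and 6.45. Each fold is relative to its own library's background, so these are descriptions of the authors' values. Ext2 carried the RUNX2 peak with the highest rank, in the top 5.04% of replicate 1 and the top 14.1% of replicate 2 by −log10 q.

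**Figure D5:**
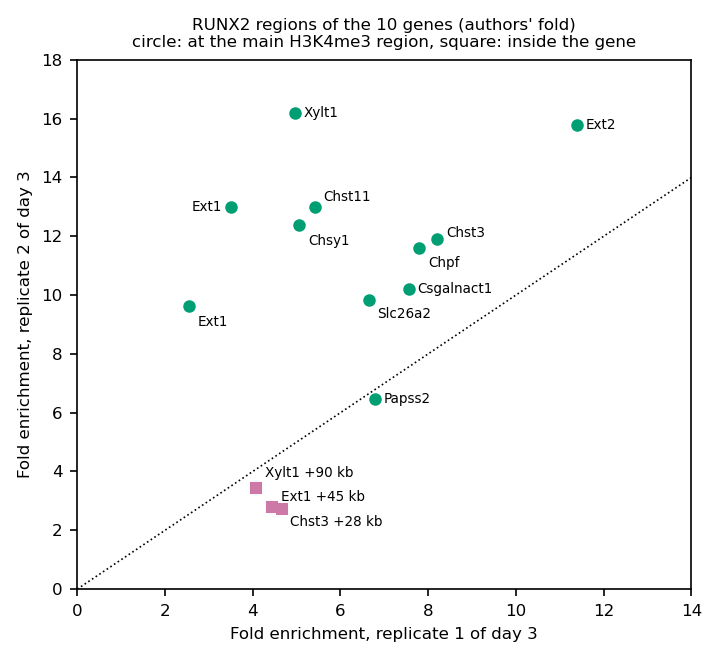
Authors' fold enrichment of RUNX2 in replicate 1 (x axis) and replicate 2 (y axis) of day 3 for the 14 RUNX2 regions of the 10 genes, with the line of equal values dotted. Circles are regions at a main H3K4me3 region and squares regions inside the gene; the 3 squares lie below the line at 2.72 to 3.45 in replicate 2, and 10 of 11 circles lie above it.

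The rest of the pathway was examined with 7 lists of 61 other genes, within 1 kb of either gene end. H3K4me3 of both replicates was found at 46 of the 61 on day 0 (47.4% of all genes), 51 on day 3 (55.2%) and 48 on day 10 (51.7%), and RUNX2 of day 3 at 50 (52.9%). With equal numbers of top peaks, H3K4me3 was found at 45 of the 61 on each day. An end of another gene lies near that of many marked genes, among them Xylt2, B3galt6, B3gat3, Chpf2, Chst7, Chst14, Extl1 and Extl2. Others are Ndst2, Hs2st1, Sulf2, Slc35b2 and Ugp2, and the lysosomal genes Galns, Hexa, Ids, Idua, Sgsh, Naglu and Hyal1. Peaks there cannot be assigned to a single gene. By role, the day 3 mark was found at 5 of 6 other linker enzymes, 2 of 3 chondroitin elongation enzymes and 6 of 8 enzymes that sulfate or epimerise chondroitin and dermatan. It was found at 3 of 3 genes for heparan chain start and elongation, 13 of 18 for heparan modification, 9 of 10 for sulfate and sugar supply and 13 of 13 for lysosomal breakdown. No list had a peak at 8 of the 61 (41.0% of all genes): the chondroitin polymerase Chsy3, the sulfotransferases Chst13, Chst15, Ndst4, Hs3st1, Hs3st2 and Hs3st4, and Slc35d1, a nucleotide sugar transporter. Thus, within 1 kb of a span end, Chsy1 and Chst11 had H3K4me3 in every list and the relatives Chsy3 and Chst13 in none. The inside of the span was not searched for the 61 genes. A mark at a start inside the span, as at Chst3, would therefore be missed.

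Between days 0 and 3, 2 of the 61 genes gained H3K4me3 (2.56% of all genes). Extl3, which starts the heparan chain, had folds of 11.4 and 6.62 on day 3 and 7.29 in replicate 2 of day 10, with RUNX2 at 5.16 in each replicate. Hs3st6, a heparan 3-O-sulfotransferase, had 5.91 and 3.97 on day 3 and 4.95 in replicate 2 of day 10. It was the 1 gene of the 61 marked on day 3 without RUNX2 in either replicate (3.54% of marked genes). None was gained from day 3 to 10 (0.0731%) or 0 to 10 (1.09%), and none was lost from day 0 to 3 (0.00%), 3 to 10 (0.434%) or 0 to 10 (0.00%). Among the 46 genes with a region in all 6 lists, covered length was longer in both replicates of day 3 than of day 0 at 39, with a median log2 ratio of 0.50 beside 0.74 for the 10 genes. The count and the median of the 46 genes were near the values over all regions, of which 78.3% were longer, with a median of 0.49. The median of the 10 genes was higher, but their ratios ran from 0.195 (Ext1) to 2.32 (Papss2). The 10 genes were chosen with earlier results of these data known. Covered length was added after the lists had been seen, so the difference is a description only. Papss1, the other sulfate-activating enzyme, had 701 and 718 bp on day 0 and 1826 and 1413 bp on day 3, a log2 ratio of 1.19 (4.83% of regions) beside 2.32 for Papss2. Papss1 was chosen for this comparison after its values were seen.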

How the data were processed

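H3K4me3 and RUNX2 were each measured in 6 libraries. The submitters' processing notes list HISAT2 2.2.0 and MACS2, with FastQC and Trim Galore, and reads were 75 bp long per the labels. Settings and the use of inputs were not given in the sources used here. The deposited lists hold peaks per library with start, end and summit positions, fold enrichment as a linear ratio, −log10 of the p-value and q-value, and a score, which equalled 10 times the −log10 q when checked. From the smallest −log10 q, the authors kept peaks up to a q of 0.05. Read depth is unknown, so a missing peak means none called at that library's depth. The submitters' notes name GRCm39, but the positions matched the RefSeq table of GRCm38.p6: 37.9 to 70.1% of H3K4me3 summits lay within 1 kb of a gene end, against 6.12 to 7.98% after a 20 kb shift. Coordinates are read as GRCm38 and counted from 1.

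Peaks were matched by at least 1 bp of overlap, and calls needed both replicates of a day, with Python 3.11.15, pandas 2.3.3, numpy 2.4.6 and SciPy 1.17.1. Overlap code was tested on simulated data. All 10 genes are named, and of the 61 others those that gained or lost a peak, had none, or lacked RUNX2 while marked on day 3. Further genes of the 61 are named for a nearby end of another gene or, where stated, after their values were seen. The genes and lists were chosen with earlier results of these data known. Covered length was added as a measure after the lists had been seen, as was the window at annotated starts. Alternatives were a stricter limit (−log10 q of at least 5), equal numbers of top peaks, other windows and overlaps, peaks within 500 bp joined, and each library left out. Promoters of Xylt1, Csgalnact1, Slc26a2 and Ext1 were not analysed here.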

Additional observations from a re-analysis of the deposited data

How the results depend on the processing

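For 36 results, 294 alternatives were computed: 269 kept their direction (counts, a value near the first), though sizes of ratios could differ, 23 moved and 2 reversed. With equal numbers of top peaks, H3K4me3 regions gained from day 0 to 3 and from day 0 to 10 numbered 0 each, those lost from day 3 to 10 numbered 1, and 0 other pathway genes gained a peak from day 0 to 3. With the summit required within the window, gains and losses of other pathway genes from day 0 to 10 numbered 1 each. Leaving out each library in turn, regions gained ranged from 3 to 22 (day 0 to 3), 1 to 5 (0 to 10) and 0 to 1 (3 to 10), and regions lost from 0 to 18 (3 to 10) and 0 to 1 (0 to 10). Genes with longer coverage ranged from 0 to 5 for day 10 above day 3 and 6 to 10 for day 10 above day 0. Other pathway genes that gained a peak ranged from 2 to 5 (day 0 to 3) and 0 to 4 (0 to 10), and those that lost one from 0 to 3 (3 to 10). The log2 ratio of Papss2 from day 3 to 10, -0.0979, was 0.0862 when replicate 1 of day 3 was left out and 0.237 when replicate 1 of day 10 was, and its lowest value was -0.535. The ratios from day 0 to 3 stayed between 2.12 and 2.54 for Papss2 and between 1.77 and 2.72 for Slc26a2, and that of Papss2 from day 0 to 10 between 1.78 and 2.55. The cause was not tested; with 1 library on a day, a call needs fewer peaks by construction.

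The labels do not say what a replicate number shares. Over the 10698 regions, the difference between replicates 1 and 2 in log2 covered length correlated between days by 0.0471 (days 0 and 3), -0.122 (3 and 10) and 0.244 (0 and 10). With the replicate number as a block, the log2 ratios of peak numbers remained 1.10, -0.61 and 0.493, with exact permutation p of 0.5, 1.0 and 0.5. With 2 pairs this test gives no p below 0.5, so it could make no call and says nothing about the pairing. The same holds for the crossed pairing of days 3 and 10, chosen after seeing the data, which gave 0 calls. Depth is unknown and limits every absence of a peak.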

Other observations

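Extl1, a glycosyltransferase of the exostosin family, was chosen after its values were seen, for the highest extension among the other pathway genes. Peaks covered 599 and 637 bp of its region on day 0, 2338 and 1903 bp on day 3 and 2222 and 2569 bp on day 10. The 4 later libraries lay above both day 0 libraries. An end of Slc30a2 lies near that of Extl1, so the peaks cannot be assigned to one of the 2 genes. The log2 ratio was 1.78 from day 0 to day 3, which 0.692% of regions reached, and 1.95 from day 0 to day 10, which 0.178% reached. Ext1, of the same family, had 0.20 from day 0 to day 3. The lysosomal breakdown genes, 12 of which had a region in all 6 lists, had a median log2 ratio of 0.42 from day 0 to day 3, with 10 of 12 longer in both day 3 replicates. The 5 linker enzymes had a median of 0.86, with 5 of 5 longer. Over all regions the median was 0.49, and 78.3% were longer.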
